A study of Mus musculus with 8 samples.

Results

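The 6 genes described here varied widely among 6 primary cultures of wild-type peritoneal mast cells (PMCs). Each had more than 25 CPM (counts scaled to library size) in some cultures and at most 1 CPM in the others. In all, 13 genes had this property. The 6 genes were BC018473, St6galnac2, Rprl3, Nkpd1, Vmn2r96 and Gm2808, 6 of 53762 gene names in the table. They were found by name in the gene count table. The name St6galnac2 stands on 2 rows, so that the 6 genes have 7 rows of 55359, and the row with fewer counts (ENSMUSG00000110170) is described apart. They were chosen by their CPM in the primary cultures, which is therefore given as a description without a test. The values of the lines PMC-303 and PMC-306 played no part in the choice.

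There were 8 RNA libraries, 1 for each of the lines PMC-303 and PMC-306, 3 for primary cultures of female mice and 3 for those of male mice. All were labelled wild-type, untreated and of the strain C57BL/6x129/Sv, and ages are not given in the sources used here. Both lines arose spontaneously from cultured PMCs and were kept with less serum and less stem cell factor than the primary cultures, so that line and medium cannot be told apart. Each line is 1 culture with 1 library, and nothing in the labels says which mice were littermates. Primary cultures are named here as female 1 to 3 and male 1 to 3, after their replicate numbers.

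The 6 genes belong to unrelated families. St6galnac2 encodes a sialyltransferase of the Golgi apparatus, which adds sialic acid to the N-acetylgalactosamine of O-linked glycans on glycoproteins. Rprl3 is named for its likeness to Rpph1, the RNA of ribonuclease P, which removes the leader from precursor tRNAs. Nkpd1 encodes a protein with a KAP-type P-loop NTPase domain, a domain it shares with the membrane scaffold Kidins220. Vmn2r96 belongs to the type 2 vomeronasal receptors, which detect pheromones in sensory neurons of the vomeronasal organ. BC018473 is annotated as a long non-coding RNA, and Gm2808 as a transcribed unprocessed pseudogene, which is a copy left by a duplication of DNA.

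Total counts per library ran from 15918758 to 24180226. At this depth 3 counts, the most that a count of 0 allows, corresponded to between 0.123 and 0.187 CPM, a limit that covers counting error only. All 10 mast cell markers had at least 1 CPM in some primary culture, and their summed level was between 53033 and 83090 CPM in the primary cultures, 43471 CPM for PMC-303 and 40075 for PMC-306. Of the 6 macrophage markers, Csf1r, C1qa, C1qb and Cd14 stayed at or below 0.230 CPM in every library, while Adgre1 reached 46.4 CPM in female 2, 25.3 CPM in male 3 and 426 CPM in PMC-306. Lyz2 had 18.0 CPM in female 2, 5.72 CPM in male 3 and between 1.18 and 2.35 CPM in the other primary cultures. The summed macrophage markers lay between 5.53 and 64.5 CPM in the primary cultures. No neutrophil, eosinophil, B cell or mesothelial marker reached 1 CPM, and of the T cell markers Cd4 alone did, with 3.22 CPM in male 1. Of the vomeronasal neuron markers only Omp reached 1 CPM. Xist had between 1468 and 2055 CPM in the female and at most 0.869 CPM in the male primary cultures. In PMC-303 Xist had 900 CPM, and Kdm5d, Uty, Ddx3y and Eif2s3y on chromosome Y had at most 1.44 CPM. In PMC-306 Xist had 0.147 CPM and these chromosome Y genes between 51.4 and 122 CPM. The lines, which are tested together below, thus differed in these sex markers.

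Rprl3 is shown first because its level rests on telling it from related RNAs. On GRCm39 it is a gene of a single exon of 290 bases at chr8:3853069-3853358 on the minus strand, and Rprl2 lies at chr3:22305538-22305827 on the plus strand. Below, capitals mark bases that differ from Rpph1 or have no partner in it, in an end-to-end alignment of the annotated transcripts.

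Rprl3: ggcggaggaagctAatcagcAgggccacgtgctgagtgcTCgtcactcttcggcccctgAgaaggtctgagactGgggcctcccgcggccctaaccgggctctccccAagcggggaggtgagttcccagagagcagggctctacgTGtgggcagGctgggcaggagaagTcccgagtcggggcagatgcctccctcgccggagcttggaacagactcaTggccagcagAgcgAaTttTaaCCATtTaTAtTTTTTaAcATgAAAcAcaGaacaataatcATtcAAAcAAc

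Rprl2: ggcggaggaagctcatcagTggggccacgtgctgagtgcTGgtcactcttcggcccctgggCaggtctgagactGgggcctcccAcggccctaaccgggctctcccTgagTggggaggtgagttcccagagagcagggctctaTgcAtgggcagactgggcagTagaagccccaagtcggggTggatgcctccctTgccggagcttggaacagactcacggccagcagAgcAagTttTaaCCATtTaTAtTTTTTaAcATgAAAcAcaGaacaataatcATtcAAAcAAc

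Rprl3 had 43 and Rprl2 44 such bases, most of them towards the 3′ end. Rprl3 was identical to Rpph1 at 247 of 289 aligned bases, or 77.2% with gaps counted, and to Rprl2 at 267 of 290. Of the 260 stretches of 31 bases in Rprl3, 15% also occurred in transcripts of other genes, 10.8% in Rprl2 and 5% in Rpph1. The counting could therefore have split reads among these RNAs.

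BC018473, St6galnac2 and Rprl3 shared a pattern, high in female 2, female 3 and male 3 and near 0 in female 1, male 1 and male 2. BC018473 (ENSMUSG00000056032, chr11:116642993-116650199, plus strand) had 867 CPM in female 2, 801 CPM in female 3 and 892 CPM in male 3. It had 0 counts in female 1 and male 1 and 1 count in male 2, so that male 3 was at least 6473-fold higher than female 1, where a count of 0 allows 0.138 CPM. The 3 high values lay within 1.11-fold of each other. In RNA from whole cultures, fewer cells that express a gene and less of its RNA per cell cannot be told apart.

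St6galnac2 (ENSMUSG00000057286, chr11:116566129-116585713, minus strand) had 67.9 CPM in female 2, 78.2 CPM in female 3 and 80.1 CPM in male 3, values within 1.18-fold of each other. It had 1 count in female 1 (0.0459 CPM) and 0 counts in male 1 and male 2. Male 3 was at least 522-fold higher than male 1. The second row of the same name spans chr11:116566129-116572116, inside the first, and had 1.92, 2.92 and 3.34 CPM in the same 3 cultures and 0 counts in the others. On that row no culture passed 25 CPM.

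Rprl3 (ENSMUSG00000088025) had 52.1 CPM in female 2, 61.6 CPM in female 3 and 114 CPM in male 3, which was the widest spread among high cultures of the 3 genes, 2.19-fold. In female 1 and male 2 it had 1 count each and in male 1 it had 2 counts. Rprl2 had 2.74, 1.36 and 6.99 CPM in female 2, female 3 and male 3 and 0 counts in the other primary cultures. Its counts thus fell in the same 3 cultures at a lower level. Whether reads of Rprl3 were counted as Rprl2 was not tested. Rpph1 had 4461, 2036 and 1175 CPM in female 1 to 3 and 3161, 4563 and 5214 CPM in male 1 to 3, and was thus high also in cultures where Rprl3 was near 0.

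Nkpd1 (ENSMUSG00000060621, chr7:19251546-19258981, plus strand) had the reverse pattern. It had 34.5 CPM in female 1, 37.4 CPM in male 1 and 27.7 CPM in male 2. In female 2, female 3 and male 3 it had 0.0879, 0.158 and 0.472 CPM, from 2, 3 and 9 counts. Each culture that was high for BC018473 was thus low for Nkpd1, and each that was low for BC018473 was high.

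Gm2808 (ENSMUSG00000116560, chr17:6779190-6796112, minus strand) was high in female 3 with 28.7 CPM and in male 3 with 27.7 CPM. It had 0.277 CPM in female 1, 0 counts in female 2, 0.114 CPM in male 1 and 0.146 CPM in male 2. Female 2, where BC018473, St6galnac2 and Rprl3 were high, was low for Gm2808. Female 3 was at least 218-fold higher than female 2.

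Vmn2r96 (ENSMUSG00000091679, chr17:18793413-18836265, plus strand) was high in female 3 alone, with 51.8 CPM from 983 counts. The next culture was female 1 with 0.873 CPM from 19 counts, followed by male 3 with 0.525 CPM from 10 counts. Male 1 had 0 counts, and female 2 and male 2 had 1 count each. Female 3 was at least 338-fold higher than male 1. Of the cultures at or below the lower limit, female 1 for Vmn2r96 was the nearest to it, and of those over the upper limit, male 3 for Gm2808 and male 2 for Nkpd1 were the nearest. Outside the limits, the closest genes were Ttn, whose highest primary culture had 21.8 CPM, and Asphd2, whose lowest had 1.14 CPM.

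**Figure D1:**
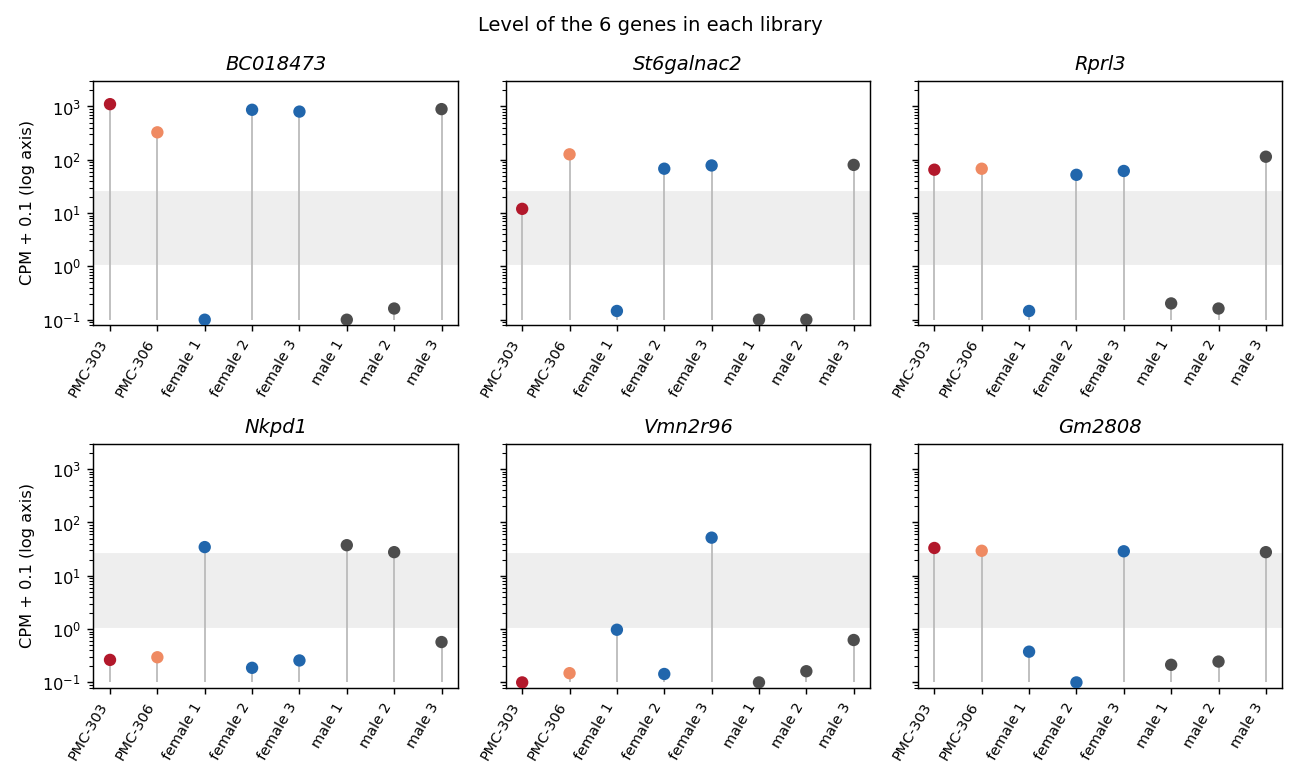
Level of each of the 6 genes in each library, as CPM + 0.1 on a log axis, 1 point per library (red PMC-303, orange PMC-306, blue female and grey male primary cultures). The shaded band lies between the limits of 1 and 25 CPM, and of the 6 genes only St6galnac2 in PMC-303, with 11.9 CPM, has a value inside it.

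Per transcript length the levels ranked differently than per library. In TPM, which divides by length, BC018473 had between 356 and 445 TPM in its 3 high cultures and St6galnac2 between 34.5 and 45.2 TPM. Rprl3 had between 388 and 673 TPM, as it is the shortest of the 6. Nkpd1 had between 12.3 and 16.9 TPM where it was high, Gm2808 7.44 and 10.2 TPM, and Vmn2r96 13.98 TPM.

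BC018473, St6galnac2, Rprl3 and Gm2808 were found in both lines, while Nkpd1 and Vmn2r96 were near 0 in both. BC018473 had 1105 CPM in PMC-303 (above every primary culture) and 327 CPM in PMC-306, which lies between the low and the high primary cultures. St6galnac2 had 11.9 CPM in PMC-303 against 126 in PMC-306, so that PMC-306 was above and PMC-303 below every high primary culture. The order of the lines was opposite for these neighbours, with PMC-303 higher by 3.38-fold for BC018473 and PMC-306 higher by 10.6-fold for St6galnac2. With 1 library per line these ratios have no replicate check.

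Rprl3 had 65.0 and 67.8 CPM in PMC-303 and PMC-306, within the range of its high primary cultures. Gm2808 had 33.1 and 29.4 CPM in the same order, both above every primary culture. Nkpd1 had 4 counts in each line, 0.165 and 0.196 CPM, within the range of its low primary cultures. Vmn2r96 had 0 counts in PMC-303 and 1 count in PMC-306.

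Tested together against the 6 primary cultures with limma on log2(CPM + 0.1), none of the 6 genes passed the threshold of an adjusted p of 0.05, and 0 had an unadjusted p below 0.05. Over all genes 33.8% of 14525 passed, 18.3% higher and 15.5% lower in the lines. Without TMM scaling, the share of higher genes among those called moved from 54.1% to 67.2%. The log2 difference, lines minus primary, was 4.86 ± 2.32 (SE) for Gm2808 (limma adjusted p = 0.143), the gene of the 6 with the lowest p. It was 5.91 ± 4.41 for BC018473 (limma adjusted p = 0.337), 3.74 ± 3.29 for St6galnac2 (limma adjusted p = 0.416) and 4.26 ± 3.01 for Rprl3 (limma adjusted p = 0.310). For Nkpd1 it was -3.50 ± 2.35 (limma adjusted p = 0.287), and for Vmn2r96 it was -2.41 ± 2.12 (limma adjusted p = 0.418). The 6 genes were chosen because the primary cultures lie far apart in them, which widens the SE and makes a low p unlikely. Their result therefore cannot be read beside the share of all genes. These p-values do not show that lines and primary cultures had the same level. The log2 difference of St6galnac2 was 2.04 without PMC-306 and 5.44 without PMC-303.

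Both sexes had cultures over 25 CPM and cultures at or below 1 CPM for each gene but Vmn2r96, which no male culture had over 25 CPM. The mean of BC018473 was 556 ± 483 CPM (SD, n = 3) in female and 297 ± 515 CPM (SD, n = 3) in male cultures, and for St6galnac2 the means were 48.7 ± 42.5 and 26.7 ± 46.2 CPM (SD, n = 3 each). Rprl3 had 37.9 ± 33.1 CPM in female and 38.1 ± 65.8 CPM in male cultures (SD, n = 3 each). Nkpd1 had 11.6 ± 19.8 and 21.8 ± 19.1 CPM, Vmn2r96 17.6 ± 29.7 and 0.196 ± 0.287 CPM, and Gm2808 9.67 ± 16.5 and 9.31 ± 15.9 CPM (SD, n = 3 each). By limma, 6 of 13693 genes (0.0438%) differed between the sexes at an adjusted p under 0.05, and 457 had an unadjusted p under 0.05. For the 6 all-or-none genes no test between the sexes is given, since they were chosen by their values in these cultures. The genes that differed were Xist and Kdm6a on chromosome X, higher in female cultures (0.0146% of genes), and Kdm5d, Uty, Ddx3y and Eif2s3y on chromosome Y, lower (0.0292%).

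Other genes met the same limits. Of 6568 genes with more than 25 CPM in a primary culture, 35 (0.533%) had at most 1 CPM in another, 28 of them on autosomes and 7 on chromosome X or Y. In 13 of the 35 genes no primary culture lay between the limits, and 8 of these 13 were autosomal, the 6 genes described here, Zfp990 and Fblim1. Zfp990, a zinc finger gene on chromosome 4, had 70.9, 46.3 and 38.1 CPM in female 2, female 3 and male 3, the cultures high for BC018473. In contrast to BC018473 it had 2 counts or fewer in both lines, at most 0.0823 CPM. Fblim1, which encodes filamin-binding migfilin, was low in female 2 alone, with 0.483 CPM. In the other 20 autosomal genes at least 1 culture fell between 1 and 25 CPM.

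**Figure D2:**
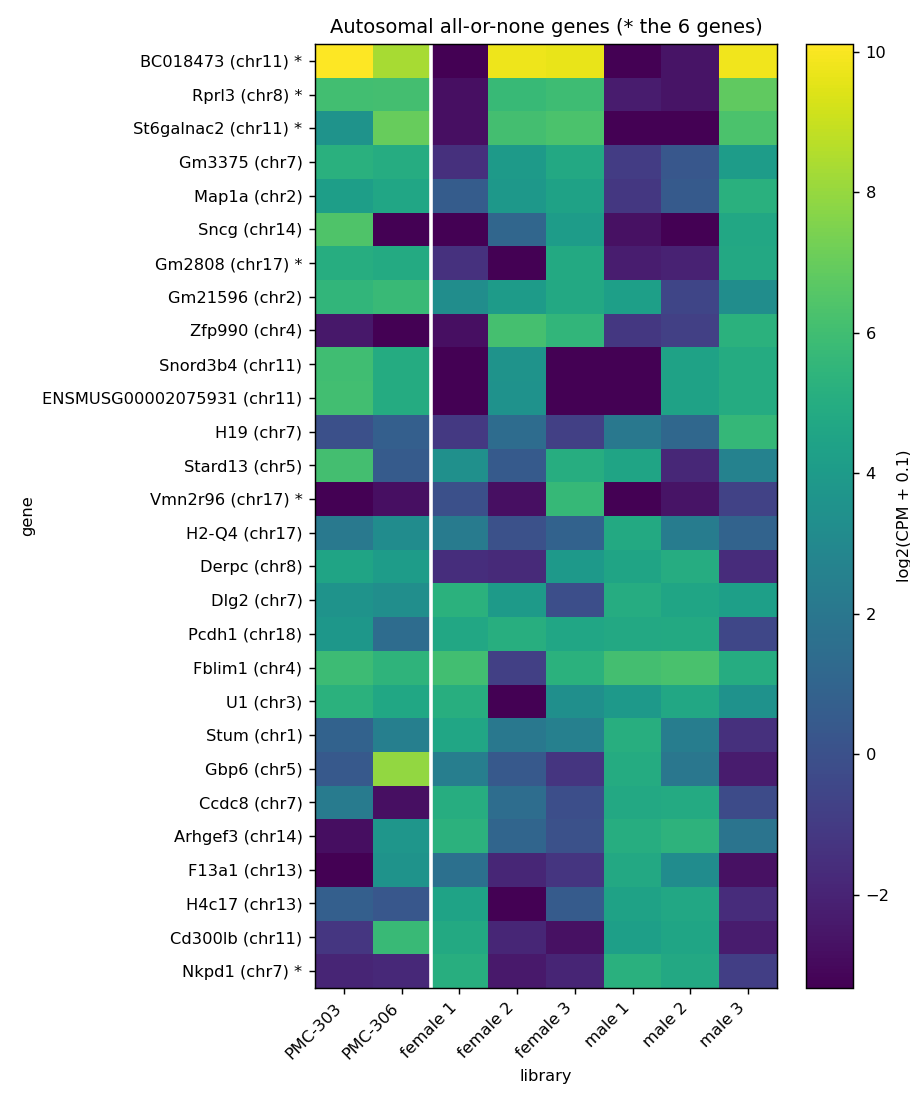
The 28 autosomal genes with over 25 CPM in a primary culture and at most 1 CPM in another, as log2(CPM + 0.1) by colour in each of the 8 libraries, ordered by the likeness of their profile to that of BC018473. The white line divides the lines from the primary cultures, and Nkpd1, at the bottom, is high where BC018473, at the top, is low.

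**Figure D3:**
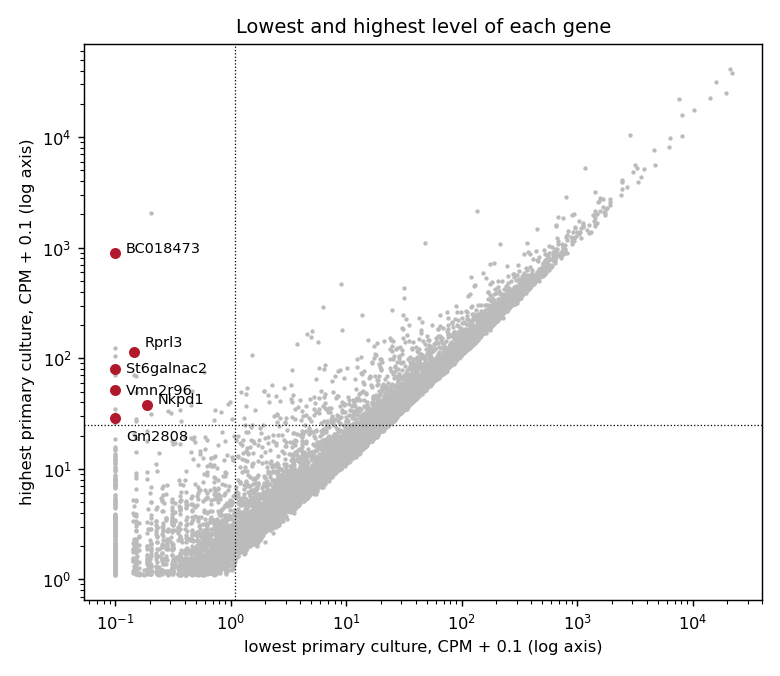
Lowest against highest primary culture for each gene with at least 1 CPM in some primary culture, as CPM + 0.1 on log axes, with dotted lines at 1 and 25 CPM. The 6 genes, in red, lie in the upper left corner, which holds 35 genes.

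The split of cultures seen for BC018473 was also counted over other genes. This count was set up after the values had been seen and is a description. For each of 9087 genes with at least 10 CPM in some primary culture, the widest gap between neighbouring values of log2(CPM + 0.1) was found, and in 64 genes it was at least 3 log2 units. In 24 of the 64 the gap parted female 2, female 3 and male 3 from female 1, male 1 and male 2, with 16 genes higher and 8 lower in the first 3. BC018473, St6galnac2 and Rprl3 are among the 16 and Nkpd1 is among the 8, and these were chosen for their spread over the same cultures. These 24 genes lay on 11 chromosomes. The gap parted the sexes in 5 genes, and set apart female 3 alone in 8 and male 3 alone in 6.

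Among the 16 genes on the side of BC018473 were Ctse, which encodes the protease cathepsin E, with 467, 335 and 297 CPM in female 2, female 3 and male 3 against 8.94 to 10.9 CPM in the others. Slc6a4, the serotonin transporter gene, had 176, 103 and 93.7 CPM against 4.97 to 8.99 CPM, and Rpl34-ps1, a processed pseudogene of a ribosomal protein gene, 106, 91.6 and 92.3 CPM against 1.42 to 1.96 CPM. Among the 8 genes on the side of Nkpd1 were Cdh2, which encodes N-cadherin, with 241, 257 and 289 CPM in female 1, male 1 and male 2 against 6.17 to 24.4 CPM, and the complement receptor gene C5ar2, with 10.4, 13.1 and 17.9 CPM against 0.0879 to 0.264 CPM. Of the 16 genes, 12 were on the high side of the gap in both lines, 2 in PMC-303 only and 2 in neither. Of the 8 genes, 5 were on the low side in both lines, 1 was high in PMC-303 only and 2 in PMC-306 only. The macrophage markers Adgre1 and Lyz2 were both highest in female 2 and next in male 3. In female 3 they had 3.95 and 1.74 CPM, within the ranges of 3.37 to 4.35 CPM for Adgre1 and 1.18 to 2.35 CPM for Lyz2 in female 1, male 1 and male 2. Their part in the pattern was not tested.

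By the root mean square difference of mean-centred log2(CPM + 0.1) over the 8 libraries, taken over 10944 genes with at least 5 CPM in some library, the gene most like St6galnac2 was Rprl3, at 0.98 log2 units, and that most like BC018473 was also Rprl3, at 2.00. These members were chosen by their values in the primary cultures, which are among the 8 libraries. As the log2 values were centred but not scaled, the measure favours genes of a like range. Likeness between members is therefore a description. Rpl34-ps1 and Ctse were among the 5 genes most like each of BC018473, St6galnac2 and Rprl3. Ly75, the gene of an endocytic lectin receptor, was among them for BC018473 and Rprl3. The other places were taken by Gbp2b and Cd300ld5 for St6galnac2 and by Gm3375 for Rprl3. For Nkpd1 they were the non-coding Gm20658 at 0.61, C5ar2 at 0.73, 5830444B04Rik, the plakophilin gene Pkp1 and Gm42372. For Gm2808 they were the intelectin gene Itln1 at 0.59, Gm29721, Gm8797, Tmem181c-ps and F11r, and for Vmn2r96 Rpl35a-ps3 at 1.21, Gm4961, Xlr3a, Pyroxd2 and 1700006J14Rik.

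The position of the genes differs. BC018473 and St6galnac2 lie 57.3 kb apart on chromosome 11, while Rprl3 is alone on chromosome 8. Within 100 kb of the 6 genes, 23 other genes had at least 1 CPM in some library, and 6 of them had a range of at least 2 log2 units over the primary cultures, against 8.99% of all 13802 genes at that level. Around Rprl3 and Vmn2r96 no measured gene within this distance reached 1 CPM. Below, cultures are also grouped by the level of the member nearby, which is the value by which it was chosen. This grouping was not planned. Counts of neighbours by it, and the shares of all genes beside them, are a description without a test.

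On chromosome 11, Snhg16, a small nucleolar RNA host gene that overlaps St6galnac2 on the opposite strand, had 35.1, 35.1 and 33.5 CPM in female 2, female 3 and male 3 and 10.1, 8.28 and 7.28 CPM in female 1, male 1 and male 2. The library kit keeps the strand, but the strand setting of the counting is not given in the sources used here, so that reads of Snhg16 and St6galnac2 may not be fully told apart. Cygb, the cytoglobin gene, had 1.098, 0.633 and 1.84 CPM in the same 3 cultures and 0 counts in the other primary cultures. Prcd, a gene named for progressive rod-cone degeneration, had 2.77 CPM in female 2 and at most 0.682 CPM elsewhere. The other 6 genes in reach, Jmjd6, Mettl23, Srsf2, Mfsd11, Ube2o and Rhbdf2, had ranges of 0.22 to 0.99 log2 units. Mfsd11 had 36.6, 35.4 and 33.8 CPM in female 2, female 3 and male 3 against 23.4 to 27.3 CPM, and Jmjd6, which encodes a hydroxylase, had 39.1, 39.4 and 36.5 CPM against 28.9 to 32.5 CPM. Snhg16, Cygb, Prcd, Mfsd11 and Jmjd6, 5 of 9 genes, were thus higher in each of these 3 cultures than in any other primary culture, against 9.77% of all 13802 genes, and Mettl23 was lower in each, against 9.31%. Srsf2, the gene of a splicing factor, lay between 102 and 119 CPM in all 6 primary cultures.

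Around Nkpd1, 8 of 9 genes with at least 1 CPM had ranges of 0.26 to 0.84 log2 units. The nearest, Trappc6a, which encodes a subunit of a vesicle tethering complex, had 30.1, 44.7 and 37.8 CPM in female 1 to 3 and 33.7, 33.4 and 33.9 CPM in male 1 to 3. Mark4, a microtubule kinase gene, had 21.6, 20.2 and 21.4 CPM in female 1, male 1 and male 2 against 14.5 to 17.4 CPM, and Bloc1s3, which encodes a subunit of a complex for lysosome-related organelles, 15.5, 18.8 and 18.6 CPM against 10.7 to 11.3 CPM. Gemin7 and Relb were also higher in each of the 3 cultures with high Nkpd1 than in any other primary culture, which makes 4 of 9 genes beside the 9.31% of all genes, while Trappc6a was lower in each, beside 9.77%. Ppp1r37, 5.74 kb away on the other side, had between 50.5 and 60.4 CPM. The exception was Ckm, the muscle creatine kinase gene, at most 1.31 CPM. Farther off, Ccdc8, Gm42372 and C5ar2 on the same chromosome, 2.52, 2.53 and 3.28 Mb from Nkpd1 between the lowest coordinates of the genes, had the same split of cultures with a gap of at least 3 log2 units. On chromosome 11, Cd300ld5 and Cd300lb lay 1.72 and 1.83 Mb from BC018473, and the first was high where BC018473 was high and the second where it was low.

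Around Gm2808, all 5 genes with at least 1 CPM were higher in female 3 and male 3 than in any other primary culture, as were 8.32% of all 13802 genes. The pseudogene Gm29721 had 11.0 CPM in female 3 and 10.3 CPM in male 3 and at most 0.547 CPM in the others. Tmem181c-ps had 10.8 and 11.0 CPM against at most 1.18 CPM, and Tmem181b-ps had 118 and 124 CPM against 36.9 to 40.9 CPM. Dynlt1b and Dynlt1c, which encode light chains of the motor dynein, had 88.2 and 90.7 CPM against 29.6 to 31.5 CPM and 20.4 and 21.5 CPM against 10.1 to 10.5 CPM. Dynlt1b had 160 and 179 CPM in PMC-303 and PMC-306, above every primary culture. Dynlt1b and Dynlt1c are related by name, as are Tmem181b-ps and Tmem181c-ps, so that the 5 genes may not be 5 separate cases. Sequence shared among these neighbours was not measured. Of the 3129 stretches of 31 bases in Gm2808, 92.9% also occur in transcripts of Tulp4 and 92.4% in Gm2792, so that reads of Gm2808 can be told from theirs only in part.

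Tulp4, on the same chromosome at chr17:6156712-6301403, had 230 CPM in female 3 and 216 CPM in male 3 against 126 to 142 CPM in the others. Gm2792 had 10.8 and 14.3 CPM in these cultures against 8.28 to 12.3 CPM. Of the 6893 stretches in Vmn2r96, 33.4% also occur in other genes, 25.1% in Vmn2r-ps117, which had 0 counts in every library, and 12.1% in Vmn2r97, which had at most 0.422 CPM in the primary cultures and 3.13 CPM in PMC-303. For BC018473 the share was 1.07%, for St6galnac2 0.115%, and for Nkpd1 no stretch was shared.

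**Figure D4:**
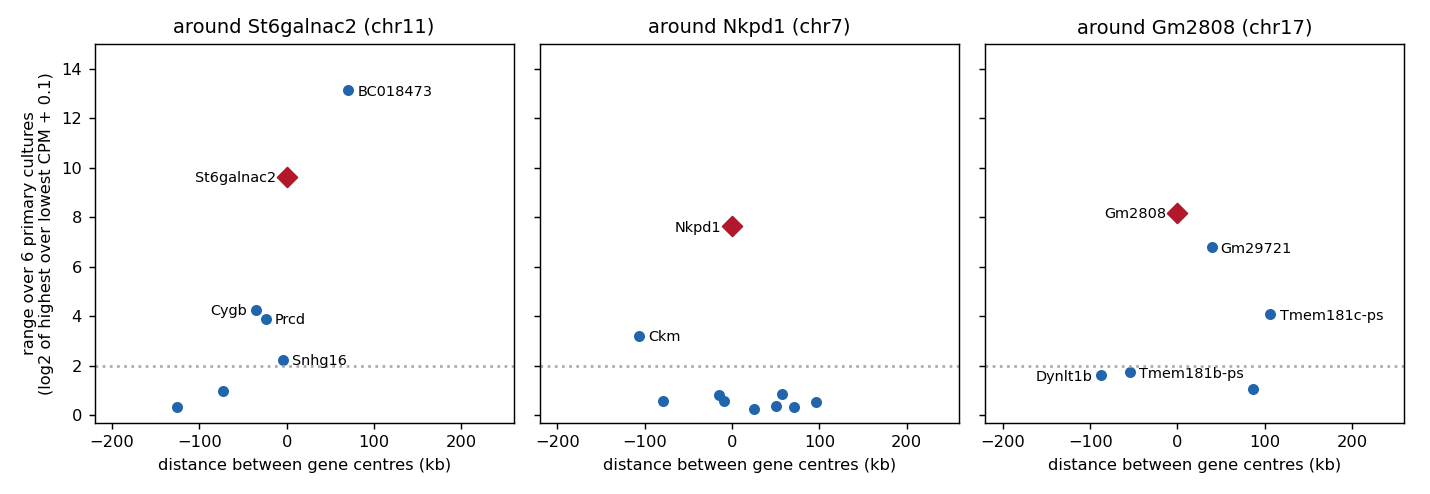
Range over the 6 primary cultures, as log2 of the highest over the lowest CPM + 0.1, against the distance in kb between gene centres, for genes with at least 1 CPM within 100 kb of St6galnac2, Nkpd1 and Gm2808 (red diamonds). The dotted line marks 2 log2 units, and near Nkpd1 only Ckm lies above it.

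The windows of 270 bases before the start of the transcript with the most counts are shown for BC018473 and St6galnac2, which were high in the same cultures, and for Nkpd1, which was high in the others. They lie at chr11:116642723-116642992 on the plus strand, chr11:116585695-116585964 on the minus strand and chr7:19252386-19252655 on the plus strand of GRCm39.

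BC018473: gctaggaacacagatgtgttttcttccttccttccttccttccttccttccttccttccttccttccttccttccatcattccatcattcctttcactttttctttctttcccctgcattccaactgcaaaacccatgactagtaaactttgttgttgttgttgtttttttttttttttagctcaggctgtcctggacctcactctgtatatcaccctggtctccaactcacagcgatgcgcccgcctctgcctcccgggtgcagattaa

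St6galnac2: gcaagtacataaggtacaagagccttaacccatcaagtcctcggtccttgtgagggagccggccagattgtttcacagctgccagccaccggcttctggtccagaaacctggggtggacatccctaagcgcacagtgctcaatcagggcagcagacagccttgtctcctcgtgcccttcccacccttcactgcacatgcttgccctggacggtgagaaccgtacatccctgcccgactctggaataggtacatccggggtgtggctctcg

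Nkpd1: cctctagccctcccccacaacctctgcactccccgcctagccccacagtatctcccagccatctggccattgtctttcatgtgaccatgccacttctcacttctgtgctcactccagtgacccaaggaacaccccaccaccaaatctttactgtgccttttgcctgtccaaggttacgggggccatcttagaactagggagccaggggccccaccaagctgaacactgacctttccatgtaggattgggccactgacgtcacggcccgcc

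The GATA motif GATAA, the AP-1 motif TGAGTCA, the TATA box TATAAA and the E-box CACGTG were searched on both strands, and none was found in these 3 windows, so that no base is in capitals. Of 13701 windows of the same length before genes with at least 1 CPM in some library or one of the 6, 21.2% held the GATA motif, 3.503% the AP-1 motif, 9.78% the TATA box and 7.45% the E-box. The share of G and C was 45.6% in the window of BC018473, 58.1% in that of St6galnac2 and 57.8% in that of Nkpd1.

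Of the 4 transcripts of BC018473, ENSMUST00000156293 took between 55.1% and 79.6% of the counts in the 5 libraries with at least 20 counts, the highest share being in PMC-303. Of the 5 transcripts of St6galnac2, ENSMUST00000079545 took between 74.7% and 93.0%, the lowest in PMC-306 and the highest in PMC-303. ENSMUST00000135771 of St6galnac2 had 296 counts in PMC-306 and 2.80 in PMC-303. For Nkpd1 the counts fell on ENSMUST00000214205 with 59.96% to 68.3% and ENSMUST00000207576 with 31.7% to 40.0% in the 3 high cultures. In female 3, the counts of Vmn2r96 were spread over 3 transcripts with 29.4%, 33.0% and 37.7%. Transcripts of a gene share exons, and these divisions are estimates.

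Genes with related tasks were listed beside the 6 genes. The sialyltransferase list held 20 names on 21 rows, of which 14 rows had at least 1 CPM. St6galnac2, which was chosen for this, was the only one past both limits. Of all genes over 25 CPM in a primary culture, 0.533% passed both. At so low a share, lists of this size cannot show whether a family lacks the pattern. Over the 14 rows tested, the median range among the primary cultures was 1.43 log2 units, against 0.53 over all genes tested. The 14 include both rows of St6galnac2, which was chosen for its range in these cultures, so that this median is a description. St8sia1, which makes ganglioside GD3, ranged from 0.505 CPM in female 1 to 19.5 CPM in male 3, and St8sia4, a polysialyltransferase gene, from 127 to 171 CPM. St6galnac1, the close relative of St6galnac2, lies 5.65 kb from BC018473 and reached at most 0.800 CPM. It had 0.307, 0.459 and 0.800 CPM in female 2, female 3 and male 3 and 0 CPM in the other primary cultures. Its few counts thus fell in the same cultures as those of St6galnac2. In the lines, 4 of the 14 rows were higher and 3 lower by limma, beside 18.3% and 15.5% of all genes. St6gal1 rose by 2.29 ± 0.37 log2 units (SE, limma adjusted p = 0.00221) and St6galnac6 by 1.90 ± 0.40 (limma adjusted p = 0.00772), while St6galnac3 fell by 1.33 ± 0.43 (limma adjusted p = 0.0419). The median log2 difference was -0.12 over the 14 rows and -0.01 over all genes.

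Genes that supply or remove sialic acid or build the O-glycan core varied little among the primary cultures, with a median range of 0.31 log2 units over 9 genes tested. Gne, the first enzyme of sialic acid synthesis, had between 32.8 and 36.2 CPM, and C1galt1, which builds the core of O-glycans, between 49.8 and 61.2 CPM. In the lines 3 of the 9 were higher (C1galt1, Nanp and Nans) and 3 lower (Gne, Neu1 and Neu3) by limma, beside 18.3% and 15.5% of all genes, and the median log2 difference was -0.03.

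Of 18 rows for the RNAs and proteins of ribonucleases P and MRP, 16 were tested. Their median range among primary cultures was 0.54 log2 units, with Rprl3 included. Rprl3, which was chosen for this, was the only one past both limits. In the lines, Pop1, Rpp30 and Rpp25l, which encode proteins of these enzymes, were higher by limma, 3 of 16 rows and near the 18.3% of all genes. Of these rows 0 were lower by limma, beside 15.5% of all genes. At an unadjusted p under 0.05 also 0 were lower, beside 3091 of 14525 genes. The median log2 difference was 0.21. Rpp30 rose by 0.68 ± 0.13 log2 units (SE, limma adjusted p = 0.00496). Kidins220, the other gene of the KAP-type list, lay between 378 and 444 CPM in the primary cultures. Of 123 type 2 vomeronasal receptor genes, 2 had at least 1 CPM in some library, Vmn2r96 in female 3 and Vmn2r97 in PMC-303. In female 3 the vomeronasal neuron markers Trpc2 and Gng8 had 0 counts and Omp had 2.27 CPM, within its range of 1.23 to 2.78 CPM over the primary cultures.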

How the data were processed

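Per the labels, total RNA libraries were made with a stranded kit. The authors trimmed reads with Trim Galore 0.6.7, aligned them to GRCm39 with STAR 2.7.9a and estimated counts per gene and transcript with Salmon 1.5.2, and they deposited these counts, which are not normalized, and TPM values. A spreadsheet program had rewritten cells of the deposited tables (3.37% for gene counts, 3.22% for transcript counts, 20.8% for TPM), and these were restored. Afterwards 99.7% of gene counts lay within 0.2 counts of their transcripts' sum. The point in rewritten TPM cells was placed to fit transcript counts and lengths. Because cells had to be restored, count models were not used.

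CPM were computed from counts and TMM-adjusted totals. limma 3.58.1 (R 4.3.3) was run on log2(CPM + 0.1) with a trend in the variance and p-values adjusted by Benjamini-Hochberg, on genes with about 10 counts in enough libraries and 15 in total, and was tested on simulated data. Pairs of primary libraries differed by more than sampling noise (20.6 to 68.1 in chi-square over degrees of freedom). P-values measure the spread between these samples. Coordinates and transcripts come from GENCODE on GRCm39, which held 98.9% of the rows. Named are the 6 genes, neighbours, the 5 most alike, other all-or-none genes and listed families. The members and lists were chosen with earlier results of these data known. Transcript TPM was not used here. Python 3.11.15, numpy 2.4.6 and pandas 2.3.3 were used.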

Additional observations from a re-analysis of the deposited data

Results flagged for a closer look

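A search of 39 measures looked for a primary culture far from the other 5, by the ratio of the gap to the whole range. It found 5, where chance gives about 1 in 20 for normally distributed values. Some of these measures lay near 0 CPM, so that the 5 cannot be read as an excess. Vmn2r96, which was chosen for such a spread and is no finding of the search, had 51.8 CPM in female 3, and the next culture had 0.873 CPM. Prcd, a neighbour of St6galnac2, had 2.77 CPM in female 2, and the next had 0.682 CPM. The summed T cell markers were at 3.47 CPM in male 1, nearly all of it Cd4, and at 0.472 CPM in the next culture. The summed eosinophil markers reached 0.158 CPM and the summed mesothelial and fibroblast markers 0.315 CPM, at or near the level of a few counts. St6galnac2 lay on opposite sides of the arithmetic primary mean in the 2 lines, by -1.65 log2 units in PMC-303 and 1.74 log2 units in PMC-306. This mean was 37.7 CPM, a level that no primary culture was near. Against the mean of the log2 values, as in limma, PMC-303 was higher by 2.04 and PMC-306 by 5.44 log2 units. The direction for PMC-303 thus depends on the mean used. With 1 library per line the difference between the lines was not tested.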

How the results depend on the processing

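The count of 35 all-or-none genes became 93 with an upper limit of 10 CPM, 13 with one of 50 CPM and 54 in TPM, and lay between 28 and 34 when a primary culture was left out. The 6 genes kept every primary culture outside the limits under each scaling and with summed transcript counts. Without female 3, Vmn2r96 has no primary culture over 25 CPM. In TPM 3 of the 6 did, since the values of Nkpd1, Vmn2r96 and Gm2808 stayed under 25 TPM. Within 250 kb, 10 genes in place of 6 had a range of at least 2 log2 units, in part because more genes lie in reach. The 4913 genes called in the comparison of the lines became 3027 against only male and 2158 against only female primary cultures, which leaves fewer samples, and lay between 3851 and 4656 with 1 library left out. The comparison of sexes called 5 or 6 genes in each alternative, 5 to 6 with 1 culture left out. With the replicate number as a block, 5 genes were called, and the deviations of same-numbered cultures correlated at 0.40, -0.22 and 0.28. Those of differently numbered female and male cultures correlated between -0.59 and 0.42. From these values it cannot be told whether the numbers paired the samples. In the comparison of the lines, none of the 6 genes passed the threshold or changed direction in the alternatives that gave it a value. The spread for which the 6 genes were chosen makes passing the threshold unlikely. Nkpd1 had no value against only female and Vmn2r96 none against only male cultures. A count of 0 cannot tell absence from a level under 0.123 to 0.187 CPM.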

Other observations

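H19, an imprinted non-coding RNA, had 50.1 CPM in male 3 and at most 4.09 CPM among the remaining ones, and Igf2, the insulin-like growth factor gene beside it, had 20.6 CPM in male 3 and at most 0.264 CPM in the rest of them. In the lines H19 had 0.864 and 1.57 CPM. Ttn, the titin gene, had 21.8 CPM in male 2 and at most 0.873 CPM elsewhere.

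Xlr and Xlr3b, X-linked lymphocyte-regulated genes, differed among the female cultures. Xlr had 49.2 and 40.1 CPM in female 2 and female 3 and 0.0919 CPM in female 1. In male 2 Xlr had 5.41 CPM, above female 1. Xlr3b had 62.8 and 68.8 CPM in female 1 and female 3 and 5.10 CPM in female 2. In the male cultures Xlr3b had at most 1.39 CPM, below every female culture. Both were below 2 CPM in the lines. Derpc was at most 0.236 CPM in female 1, female 2 and male 3 and between 15.007 and 31.6 CPM in the other 3 primary cultures.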
